A study of Mus musculus with 12 samples.

Results

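The genes described here encode the subunits of the oxidative phosphorylation system of mouse cells, together with a few genes that share their names. They were chosen by symbol alone: protein-coding genes beginning with Ndufa, Ndufb, Ndufc, Ndufs, Ndufv, Uqcr, Atp5, Cox4i, Cox5, Cox6, Cox7, Cox8 or mt-, and Sdha, Sdhb, Sdhc and Sdhd. Of the 46517 genes counted, 106 met this rule, of which 93 are nuclear genes and 13 lie on the mitochondrial chromosome. The nuclear genes comprise 84 genes counted here as subunits, 8 Ndufaf genes for complex I assembly factors, which the prefix takes in, and Atp5s, which is not a subunit. Complexes were assigned by symbol, which need not match where a protein sits. Ndufa4 and its paralogue Ndufa4l2 are thus counted under complex I, and Cox7a2l, which takes part in supercomplex assembly, under complex IV.

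RNA-Seq was performed on 12 samples of the Eomes EGFP reporter mESC line, labelled with a C57BL/6 background and grown on mouse embryonic fibroblast feeders. In this line EGFP reports on Eomes from its own locus, and WT and KO cells carry the reporter alike. The 4 groups of 3 replicates were WT ESCs at day 0, Meteor KO ESCs at day 0, WT cells at day 3 and Meteor KO cells at day 3, where day 3 cells came from embryoid bodies formed in hanging drops. Meteor is an enhancer with an associated lncRNA, and the KO removes it with guides on both sides of it and the D10A nickase form of Cas9. Clones were picked individually after puromycin, and which clone gave the RNA is not given in the sources used here. WT and KO therefore differ by the deletion and by clone, and these cannot be told apart. Whether replicates were separate cultures is not stated, so p-values measure the spread between these samples.

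Oxidative phosphorylation is carried out in the inner mitochondrial membrane. Complex I, a NADH dehydrogenase, and complex II, the succinate dehydrogenase of the citric acid cycle, pass electrons to complex III and then through cytochrome c to complex IV, which reduces oxygen, and the proton gradient that complexes I, III and IV build drives the ATP synthase. Complex II is encoded wholly in the nucleus, whereas the other complexes combine nuclear subunits with subunits made from mitochondrial DNA, which is transcribed from both strands as long precursors.

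The labels were checked first. Of the transcripts annotated upstream of Eomes, 2610509F24Rik had 1.35 to 5.84 CPM (counts scaled to library size, TMM-adjusted) in the WT samples and was at 0 in every KO sample, and Platr11 had 0.513 to 6.11 CPM in WT and at most 0.0551 CPM in KO. Upf3b, a nonsense-mediated decay factor on the X chromosome and so outside the deletion, had 45.4 to 55.8 CPM in WT and at most 0.661 CPM in KO. The summed level of 8 markers of undifferentiated ESCs was 3176 to 4928 CPM at day 0 and 651 to 1247 CPM at day 3, and that of 8 primitive streak markers reached 932 to 1817 CPM in WT at day 3 against 76.7 to 152 CPM in KO at day 3. The part of these marker differences in the results was not tested, and in these bulk samples fewer cells of a type and less RNA per cell cannot be told apart. WT day 3 replicate 3 stood apart from the other WT samples of that day in both sums, with 651 CPM of ESC markers and 932 CPM of streak markers. The 12 markers of feeder fibroblasts summed to 85.4 to 474 CPM, none of them at 0 in every sample.

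Of the 93 nuclear genes 88 were tested, having exceeded 1 CPM in 1 or more samples. The 5 others were Ndufs5 with 100 reads over all samples, Cox7b2 with 78, Cox8c with 65, Cox6a2 with 10, and Cox8b with 0. Cox6a2 and Cox8b are the isoforms of striated muscle. Of the 13 mitochondrial genes 7 had reads: mt-Nd1, mt-Nd2, mt-Nd4, mt-Nd5 and mt-Nd6 of complex I, mt-Cytb of complex III and mt-Co1, the catalytic subunit of complex IV. The 6 others, mt-Nd3, mt-Nd4l, mt-Co2, mt-Co3, mt-Atp6 and mt-Atp8, were listed at 0 in every sample. The counting leaves out reads that align to more than 1 place. Chromosome 1 holds a nuclear copy of a stretch of the mitochondrial chromosome, annotated as unprocessed pseudogenes on the minus strand. Of the 100-base words of mt-Co3, 99.9% occur also in transcripts of another gene, as do 99.5% of those of mt-Co2, 99.5% of mt-Atp6, 98.5% of mt-Nd4l, 97.6% of mt-Nd3, 60.8% of mt-Nd4 and 30.8% of mt-Co1. The share was 3.2% for mt-Nd2 and 0% for mt-Nd1, mt-Nd5, mt-Nd6 and mt-Cytb. It was also 0% for mt-Atp8, for which no annotated copy was found. mt-Atp8 (chrM:7766-7969) lies between mt-Co2 and mt-Atp6 and overlaps the second. The copies of these neighbours lie on chromosome 1 at 24614885-24615565 and 24613974-24614651. Only annotated transcripts were searched, so the sequence between these copies was not examined, and the listing of mt-Atp8 at 0 was not accounted for here. Among nuclear genes the share passed 10% for Ndufb9, Ndufa12, Atp5h, Ndufs5, Uqcrc2, Ndufb4, Cox7c, Ndufa13, Ndufb6, Atp5o, Atp5g2 and Ndufaf2, and their counts are uncertain to that extent.

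The first 120 bases of mt-Co3 and mt-Nd3 are shown beside their chromosome 1 copies because each pair is the same, or nearly so, over more than the length of a read. The sequences are from GENCODE M21 transcripts (GRCm38), 5′ to 3′ on the strand of the gene, at chrM:8607-8726 (plus strand) for mt-Co3, chr1:24613852-24613971 (minus strand) for Gm28437, chrM:9459-9578 (plus strand) for mt-Nd3 and chr1:24613000-24613119 (minus strand) for Gm28438. A capital marks the base at which the mt-Nd3 pair differs, and the mt-Co3 pair has no difference in this window.
mt-Co3: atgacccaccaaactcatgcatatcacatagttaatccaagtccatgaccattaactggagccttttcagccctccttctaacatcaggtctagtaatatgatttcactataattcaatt
Gm28437: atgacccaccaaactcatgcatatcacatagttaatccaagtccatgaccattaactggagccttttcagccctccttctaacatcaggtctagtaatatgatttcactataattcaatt
mt-Nd3: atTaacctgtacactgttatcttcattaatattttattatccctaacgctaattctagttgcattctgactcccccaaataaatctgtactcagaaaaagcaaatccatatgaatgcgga
Gm28438: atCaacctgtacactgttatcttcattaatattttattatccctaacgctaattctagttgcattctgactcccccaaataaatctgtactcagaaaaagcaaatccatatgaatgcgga
Over their whole aligned length Gm28437 matched mt-Co3 at 783 of 783 bases, Gm10925 matched mt-Atp6 at 678 of 678, Gm28661 matched mt-Co2 at 681 of 681, and Gm10222 matched mt-Nd4l at 294 of 294. Gm28438 differed from mt-Nd3 at 1 of 345 bases. Gm28439 matched mt-Nd4 over 876 bases and Gm29216 matched 98.78% of 492 bases of mt-Co1. The copies themselves had at most 21 reads in any sample.

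Levels were compared between genes as CPM per kb of exon. In WT ESCs the mitochondrial transcripts with reads lay far above the nuclear ones: mt-Co1 had 5198 ± 559 CPM per kb (mean ± SD, n = 3), mt-Nd1 4850 ± 751, mt-Cytb 3651 ± 669, mt-Nd2 1962 ± 250, mt-Nd5 1278 ± 158 and mt-Nd4 823 ± 84.8. mt-Nd6, the only subunit gene on the other strand of the mitochondrial chromosome, had 225 ± 29.8 CPM per kb. Libraries were selected for poly(A) and the strand setting of the counting is not given, so this level may depend on both. The values of mt-Nd4 and mt-Co1 leave out their shared stretches and are lower bounds in this respect. mt-Co1 and mt-Nd1 lay within 1 SD of each other, and the other neighbours in this order were further apart than the larger of their SDs. Among the 79 nuclear subunits that passed the filter the median was 46.4 CPM per kb in WT ESCs, and the highest were Atp5b at 480.1 and Atp5a1 at 393.2 CPM per kb, which encode the catalytic beta and the alpha subunit of the ATP synthase. Cox4i1, a core nuclear subunit of complex IV, followed at 176.5 CPM per kb. The nuclear subunits varied little between replicates, with a median coefficient of variation of 5.67% in WT and 5.84% in KO at day 0 and 8.43% in both groups at day 3. The mitochondrial transcripts varied more, with medians of 12.7%, 6.3%, 22% and 18.7% in WT day 0, KO day 0, WT day 3 and KO day 3.

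The mitochondrial subunit transcripts fell during differentiation of WT cells and were higher in KO than in WT cells at day 3. Of the 7 with reads, 5 fell in WT from day 0 to day 3 (mt-Nd1, mt-Nd2, mt-Nd5, mt-Nd6 and mt-Cytb), and the same 5 were higher in KO than in WT at day 3. In KO cells 2 of them, mt-Nd5 and mt-Nd6, passed the test for a fall. mt-Co1 did not pass in any comparison, with log2 fold changes between 0.051 and 0.12.

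mt-Nd1, a core membrane subunit of complex I, had 4184, 5470 and 4271 CPM in WT and 4885, 5366 and 4772 CPM in KO at day 0. At day 3 it had 3101, 2177 and 2019 CPM in WT and 5134, 3789 and 3048 CPM in KO. The groups overlapped at day 0, the WT samples of day 3 lay below all WT samples of day 0, and at day 3 only the lowest KO sample and the highest WT sample crossed. The log2 fold change was -0.95 ± 0.17 (SE) in WT from day 0 to day 3 (adjusted p = 0.000894, edgeR quasi-likelihood test, Benjamini-Hochberg over all 15673 genes tested, as for every adjusted p of this kind here). KO against WT it was 0.71 ± 0.17 at day 3 (adjusted p = 0.0101), a 1.63-fold difference, and 0.11 ± 0.16 at day 0 (adjusted p = 0.69).

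mt-Cytb, the subunit of complex III that binds ubiquinol, had 3593, 5043 and 3895 CPM in WT and 5076, 5900 and 5852 CPM in KO at day 0. At day 3 it had 3424, 2372 and 2343 CPM in WT and 5063, 3988 and 3668 CPM in KO. Every KO sample lay above every WT sample at both days. The log2 fold change of KO against WT was 0.65 ± 0.17 at day 3 (adjusted p = 0.019) and 0.43 ± 0.17 at day 0, where it did not pass (adjusted p = 0.109). In WT it was -0.63 ± 0.17 from day 0 to day 3 (adjusted p = 0.0112).

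mt-Nd5, a proton-pumping subunit of complex I, had 2124, 2660 and 2209 CPM in WT and 2735, 3219 and 3371 CPM in KO at day 0. At day 3 it had 1526, 1370 and 1328 CPM in WT and 2545, 2107 and 1748 CPM in KO. The 4 groups did not overlap within either day or within either genotype. Both falls passed, with -0.73 ± 0.14 in WT (adjusted p = 0.00155) and -0.55 ± 0.14 in KO (adjusted p = 0.00671), as did the difference at day 3 of 0.60 ± 0.14 (adjusted p = 0.0101), while the 0.42 ± 0.14 at day 0 did not (adjusted p = 0.0575).

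mt-Nd6, transcribed from the opposite strand, had 102.9, 133.4 and 113.8 CPM in WT and 151.8, 105.3 and 116.8 CPM in KO at day 0. At day 3 it had 63.1, 65.0 and 54.7 CPM in WT and 90.7, 82.9 and 83.7 CPM in KO. It overlapped at day 0 and separated at day 3. The limits given above for its level, the poly(A) selection and the unknown strand setting, hold for these values too. Its log2 fold change in WT was -0.94 ± 0.14 (adjusted p = 0.000329), in KO -0.53 ± 0.14 (adjusted p = 0.00757), and KO against WT at day 3 0.50 ± 0.14 (adjusted p = 0.0223).

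mt-Nd2 took the same course, with 1919, 2334 and 1857 CPM in WT and 2441, 2403 and 2344 CPM in KO at day 0, and 1591, 1195 and 1010 CPM in WT and 2419, 1985 and 1535 CPM in KO at day 3. It passed in WT over time with -0.71 ± 0.14 (adjusted p = 0.00169) and at day 3 with 0.65 ± 0.14 (adjusted p = 0.00645). The groups were apart at day 0 and crossed by 1 sample each at day 3.

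mt-Nd4 and mt-Co1, which share words with the nuclear copy, did not pass. mt-Nd4 had 1069, 1269 and 1065 CPM in WT and 1452, 1517 and 1519 CPM in KO at day 0, without overlap, and 1219, 881 and 822 CPM in WT and 1556, 1231 and 1057 CPM in KO at day 3, with overlap. Its log2 fold change of KO against WT was 0.40 ± 0.14 at both days (adjusted p = 0.067 at day 0 and 0.0531 at day 3). mt-Co1 had 7658, 9019 and 7417 CPM in WT and 8746, 9292 and 8205 CPM in KO at day 0, and 9819, 7275 and 8080 CPM in WT and 10630, 7787 and 8906 CPM in KO at day 3. All its groups overlapped.

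**Figure D1:**
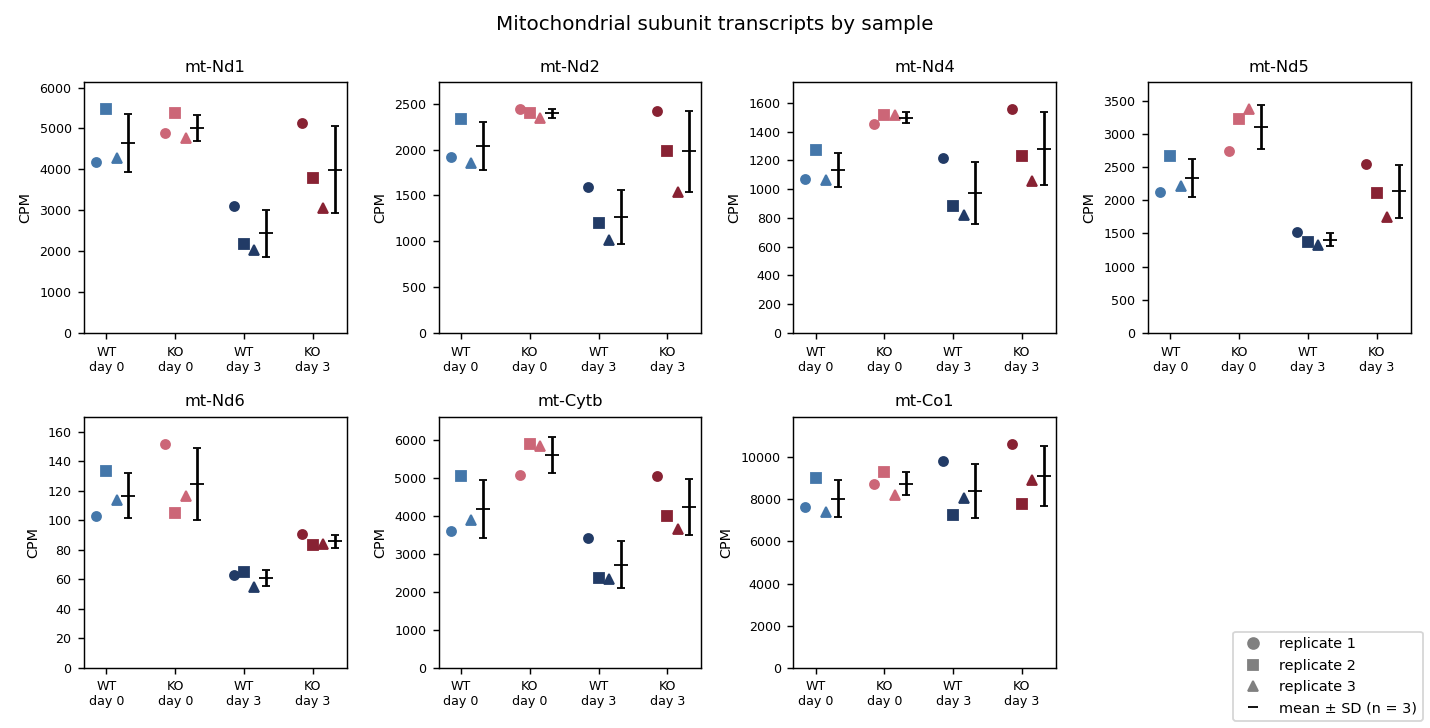
TMM-scaled CPM (y axis, linear, from 0) of the 7 mitochondrial subunit transcripts with reads in each of the 12 samples, by group (x axis), with bars for mean ± SD (n = 3) and a symbol for each replicate number. In the panel for mt-Nd6 the WT samples of day 3 lie between 54.7 and 65.0 CPM, below all others, whereas mt-Co1 shows no separation between groups.

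At day 3 all 7 transcripts were higher in KO than in WT within each of the 3 replicate numbers, and 3 of the 7 (mt-Nd5, mt-Nd6 and mt-Cytb) did not overlap between the groups, where 43.8% of all genes tested did not. Beside the 5 of 7 called higher stands the background of this comparison: 30.9% of all 15673 genes tested were called, 14.3% higher and 16.7% lower. The 5 called falls in WT stand beside a background of 56.2% called, 30.7% higher and 25.5% lower, and the 5 that did not overlap beside 57.8% of all genes. In KO 2 of 7 were called lower, where 56.6% of all genes were called, 29.4% higher and 27.2% lower, and 3 of 7 did not overlap beside 62.6%. At day 0 none of the 7 was called in the main edgeR fit, whose block is shared by both days, and 3 had an unadjusted p below 0.05. Of all genes 20.4% were called, 9.56% higher and 10.9% lower, and 4 of 7 did not overlap beside 34.2%. DESeq2 called 2 at day 0. The median log2 fold change of the 7 was 0.24 at day 0 and 0.60 at day 3 for KO against WT, -0.71 over time in WT and -0.35 over time in KO, where the medians of all genes tested were -0.0094, -0.002, 0.073 and 0.028.

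The call at day 3 was sensitive to single samples. Without WT day 3 replicate 3, or without KO day 3 replicate 1, 3 of the 7 were called in place of 5. mt-Nd6 lost its call without each of WT replicates 1 and 3 and KO replicates 1, 2 and 3 of day 3 (adjusted p between 0.052 and 0.0664), and mt-Cytb without WT replicates 2 and 3 and KO replicate 1 (adjusted p between 0.0616 and 0.0892). With a separate block for the replicate numbers of each day, 4 of the 7 were called at day 0 in place of 0, all higher, and 2 of 7 in place of 0 for the difference of the KO effect between days. In the main fit that difference was called for none of the 7 mitochondrial members, beside 15.5% of all genes tested called in either direction, and 1 of 7 had an unadjusted p below 0.05. The largest was 0.60 ± 0.23 for mt-Nd1 (adjusted p = 0.11), and the call on this difference depends on which block is fitted.

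As a share of all reads counted on genes, the 7 mitochondrial transcripts took 2.19 ± 0.26% in WT and 2.54 ± 0.16% in KO at day 0, and 1.83 ± 0.31% in WT and 2.30 ± 0.41% in KO at day 3 (SD, n = 3). Restricted to the 5 transcripts with at most 10% shared words, the shares were 1.3 ± 0.18%, 1.56 ± 0.11%, 0.834 ± 0.162% and 1.25 ± 0.27% in the same order. The nuclear subunits together took 0.941 ± 0.04%, 1.01 ± 0.028%, 0.920 ± 0.043% and 0.948 ± 0.05%. For each read of a nuclear subunit there were 1.38 ± 0.2 reads of the 5 mitochondrial transcripts in WT and 1.55 ± 0.13 in KO at day 0, against 0.904 ± 0.145 in WT and 1.31 ± 0.21 in KO at day 3. In single samples this ratio was 1.21, 1.60 and 1.33 in WT at day 0, 1.40, 1.64 and 1.60 in KO at day 0, 1.07, 0.810 and 0.832 in WT at day 3, and 1.54, 1.28 and 1.122 in KO at day 3. WT at day 3 was the lowest group and did not overlap any other.

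**Figure D2:**
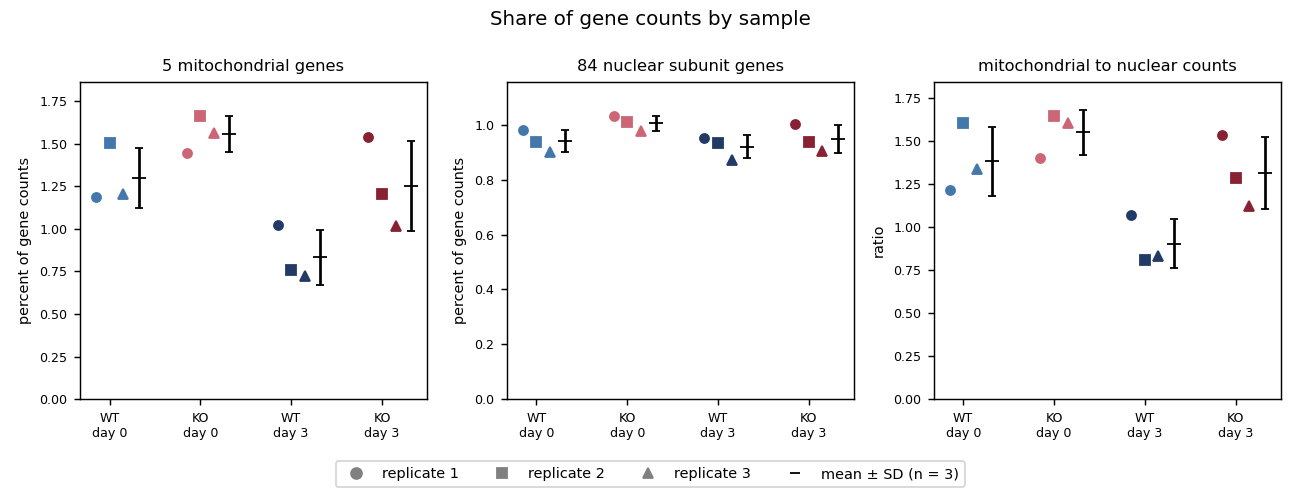
Percent of the reads counted on genes (y axis, from 0) taken by the 5 mitochondrial transcripts with few shared words (left) and by the 84 nuclear subunits (middle), and the ratio of the first to the second (right), in each sample by group (x axis), with bars for mean ± SD (n = 3). The nuclear share stays between 0.872 and 1.03% in all 12 samples, while that of the mitochondrial transcripts drops to 0.725 to 1.02% in WT at day 3.

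The 2 mitochondrial rRNAs, which are not among the 106 genes, also fell in WT and were higher in KO than in WT at day 3. mt-Rnr1 had 218.0, 199.3 and 217.8 CPM in WT at day 0, 97.9, 128.8 and 110.4 in WT at day 3, and 189.0, 175.4 and 140.3 in KO at day 3. All WT samples of day 3 lay below all samples of both other groups. Its log2 fold change was -0.91 ± 0.14 in WT over time (adjusted p = 0.000422) and 0.57 ± 0.14 for KO against WT at day 3 (adjusted p = 0.0124), and that of mt-Rnr2 was -1.42 ± 0.24 (adjusted p = 0.000717) and 1.14 ± 0.24 (adjusted p = 0.00572). Over time in KO neither passed, with -0.213 for mt-Rnr1 (adjusted p = 0.215) and -0.542 for mt-Rnr2 (adjusted p = 0.071). Nor did either pass in KO against WT at day 0, with -0.126 (adjusted p = 0.574) and 0.265 (adjusted p = 0.467). Libraries were selected for poly(A), so the level of these rRNAs here depends on that selection.

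The median log2 fold change of the nuclear genes over time lay close to 0, at -0.035 in WT and -0.074 in KO. From day 0 to day 3, 20 of the 88 nuclear genes tested were called in WT (22.7%, beside 56.2% of all genes), 8 higher and 12 lower, and 29 in KO (33.0%, beside 56.6%), 6 higher and 23 lower. In WT complexes III and IV and the ATP synthase held most of the genes that fell, and complex I held genes of both directions. In KO nearly all called genes of complex I fell. Among genes above 20 CPM the background was 57.2% in WT and 58.9% in KO. The CPM of the 2 days did not overlap for 31 nuclear genes in WT (57.8% of all genes) and for 42 in KO (62.6%).

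In complex I the largest called fall was that of Ndufb10, an accessory subunit of its membrane arm, which had 53.5, 62.8 and 53.2 CPM in WT and 68.2, 69.3 and 72.0 CPM in KO at day 0, and 34.1, 33.7 and 33.8 CPM in WT and 39.4, 35.7 and 37.3 CPM in KO at day 3. Day 3 lay below day 0 in all samples of both genotypes. The log2 fold change was -0.74 ± 0.092 in WT (adjusted p = 0.000126) and -0.90 ± 0.092 in KO (adjusted p = 2.65e-05). Ndufa11, another accessory subunit of the membrane arm, fell by 0.47 ± 0.094 in WT (adjusted p = 0.00198) and by 0.74 ± 0.094 in KO (adjusted p = 0.000107) on the log2 scale. Ndufs4, an accessory subunit of the matrix arm, rose in WT by 0.53 ± 0.12 (adjusted p = 0.00417), with 66.3, 56.1 and 58.0 CPM at day 0 and 112.8, 89.7 and 63.0 CPM at day 3, where replicate 3 overlapped day 0. Ndufab1, the mitochondrial acyl carrier protein, rose by 0.30 in WT (adjusted p = 0.0148) and 0.49 in KO (adjusted p = 0.000956). By symbol 37 nuclear genes were tested under complex I, Ndufa4 and Ndufa4l2 among them. Of these 6 rose and 3 fell in WT, and 1 rose and 9 fell in KO.

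No gene of complex II was called over time in WT by edgeR, and none of the 4 had an unadjusted p below 0.05. Sdhb, the iron-sulfur subunit, rose in KO by 0.24 ± 0.078 (adjusted p = 0.0219), with 78.3, 64.8 and 69.7 CPM at day 0 and 92.7, 77.8 and 81.6 CPM at day 3, which overlap. This call was lost without any of 3 samples (adjusted p between 0.0745 and 0.107) and under 3 other settings. Sdha, the flavoprotein, changed by -0.031 in WT and -0.11 in KO, and Sdhd by 0.14 and 0.29, without passing.

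In complex III Uqcrc1, a core subunit, had 234.1, 227.4 and 204.7 CPM in WT and 263.9, 266.1 and 241.9 CPM in KO at day 0, and 149.8, 175.3 and 141.3 CPM in WT and 187.6, 201.9 and 169.5 CPM in KO at day 3. It fell without overlap by 0.52 ± 0.069 in WT (adjusted p = 0.000183) and by 0.47 ± 0.069 in KO (adjusted p = 0.000268). Uqcrb fell by 0.30 in WT (adjusted p = 0.0106) and 0.29 in KO (adjusted p = 0.0128), and Uqcr10 and Uqcrq fell in KO by 0.36 (adjusted p = 0.0137) and 0.29 (adjusted p = 0.0141). The call of Uqcrb in WT was lost without 1 sample (adjusted p = 0.0514), with library totals and in a fit of only the WT groups. Those of Uqcr10 and Uqcrq were each lost without any of 3 samples (adjusted p up to 0.0666 and 0.074). Of the 8 genes of complex III, 2 fell in WT and 4 in KO and none rose.

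In complex IV 3 genes fell in WT and 4 fell and 1 rose in KO. Cox6a1, the isoform of most tissues, had 111.0, 105.8 and 99.1 CPM in WT at day 0 and 80.3, 84.1 and 78.3 CPM at day 3, and 134.1, 135.5 and 121.4 against 94.8, 94.5 and 86.4 CPM in KO. No sample of day 3 reached those of day 0. It fell by 0.38 ± 0.066 in WT (adjusted p = 0.000884) and 0.50 ± 0.066 in KO (adjusted p = 0.000127). Cox5a fell by 0.48 ± 0.086 in WT (adjusted p = 0.00107) and 0.35 ± 0.086 in KO (adjusted p = 0.00591), and Cox4i1 by 0.31 ± 0.061 (adjusted p = 0.0019) and 0.34 ± 0.061 (adjusted p = 0.00094). Cox8a fell in KO by 0.31 (adjusted p = 0.00699), and Cox7a2l, which takes part in supercomplex assembly, had a log2 fold change of 0.22 in KO (adjusted p = 0.0303), a call lost without each of the 6 KO samples (adjusted p between 0.0757 and 0.101), with RLE factors, with no filter, with no replicate block and in a fit of only the KO groups. Of the other isoforms, Cox6b1, Cox7a2 and Cox7b showed no call over time. Cox4i2, an isoform raised in lung and in low oxygen, and Cox7a1, the isoform of heart and skeletal muscle, stayed below 3 and 5 CPM in every sample, and Cox6b2, the testis isoform, had 6.49 to 19.6 CPM. The test called none of these 3 over time.

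In the ATP synthase Atp5b had 2165, 2031 and 1906 CPM in WT and 2422, 2111 and 2163 CPM in KO at day 0, and 1554, 1606 and 1472 CPM in WT and 1744, 1799 and 1706 CPM in KO at day 3. It fell without overlap by 0.40 ± 0.066 in WT (adjusted p = 0.000706) and 0.35 ± 0.066 in KO (adjusted p = 0.00131). Of the genes for the c subunit of the rotor ring, which encode the same mature protein, Atp5g1 fell by 0.63 ± 0.15 in WT (adjusted p = 0.00515) and 0.43 ± 0.15 in KO (adjusted p = 0.0332). Atp5g3, the most abundant of them at 209.3 to 250.7 CPM, changed by -0.11 and -0.026, and Atp5g2, at 2.85 to 5.56 CPM, by 0.18 and -0.019, none of which passed. Atp5g1 was at 22.4 to 43.1 CPM. Its call in KO was lost without any of 4 samples (adjusted p between 0.075 and 0.153) and with library totals. Atp5l differed in KO by -0.86 ± 0.3 (adjusted p = 0.0316) at levels of 1.06 to 3.02 CPM. This call was lost without any of 4 samples (adjusted p between 0.0879 and 0.128). Of the 6536 words of Atp5l, 307 occur also in transcripts of 6 other genes, so its count is uncertain as well. Atp5s, which is not a subunit, rose in WT by 0.75 ± 0.23 (adjusted p = 0.0174) at 2.75 to 7.52 CPM. This call was lost without either of 2 samples (adjusted p up to 0.0979) and in a fit of only the WT groups.

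Of the 8 assembly factor genes 1 rose in WT, and 2 rose and 1 fell in KO. Ndufaf7 rose in KO by 0.43 ± 0.1 (adjusted p = 0.0048). In WT it differed by 0.31 ± 0.1 (adjusted p = 0.0259), a call lost without any of 5 of the 6 WT samples (adjusted p between 0.0617 and 0.12) and under 4 other settings. Ndufaf3 differed in KO by 0.50 (adjusted p = 0.0151), a call lost without any of 3 samples (adjusted p between 0.0543 and 0.0749), and Ndufaf5 fell in KO by 0.61 (adjusted p = 0.00212).

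WT and KO time courses share no sample, and 12 nuclear genes were called in the same direction in both, which is 60% of those called in WT and 41.4% of those called in KO. They were Atp5a1, Atp5b, Atp5g1, Cox4i1, Cox5a, Cox6a1, Ndufa11, Ndufb10, Uqcrb and Uqcrc1, which fell, and Ndufab1 and Ndufaf7, which rose. Single samples ended the call of Atp5g1 in KO and those of Uqcrb and Ndufaf7 in WT. That of Atp5a1 in WT was lost with library totals (adjusted p = 0.0589). Over all genes tested 6054 were called in the same direction in both, 68.7% of those called in WT and 68.3% of those called in KO. The nuclear median over time depends on the scaling: it was -0.035 in WT with TMM and 0.081 with library totals alone, where 22 genes were called higher and 8 lower. Library totals moved the median of all genes in this comparison by 0.116, and relative to that median the nuclear genes lay at -0.11 under both. RLE factors gave 4 higher and 17 lower in WT. In KO the median was -0.074 with TMM and -0.0013 with library totals, with 14 called higher and 20 lower. In WT 11 to 17 nuclear genes were called when a sample was left out, and 11 without WT day 3 replicate 3, 13 without WT day 0 replicate 2, WT day 0 replicate 3 or WT day 3 replicate 2.

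**Figure D3:**
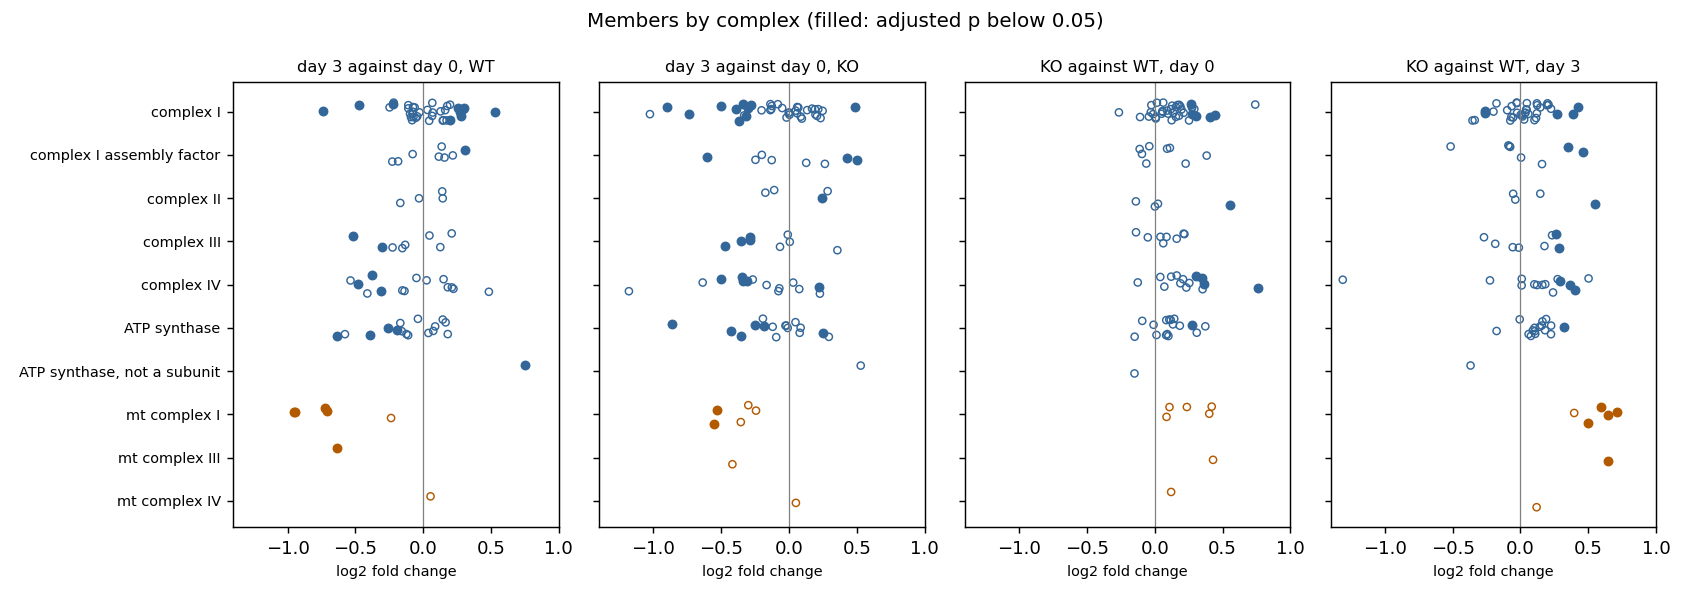
Log2 fold change (x axis) of each member that passed the filter, by complex (y axis), in the 4 comparisons, with filled points for an adjusted p below 0.05. The mitochondrial points lie left of 0 in the WT time course apart from mt-Co1 (0.054), and right of 0 in KO against WT at day 3, where the nuclear median is 0.084.

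In undifferentiated ESCs 11 of the 88 nuclear genes were higher in KO than in WT and none was lower (12.5% called, beside 20.4% of all genes, and 22.5% of genes above 20 CPM). Among them were Ndufa8, Ndufb5, Ndufb10 and Ndufb11 of complex I, Sdhc of complex II, Cox6a1, Cox6b2, Cox6c and Cox8a of complex IV, and Atp5j2 of the ATP synthase. The CPM of WT and KO did not overlap for 34 of the 88, of which 33 were higher in KO, beside 34.2% of all genes in either direction. At day 3, 12 were higher and 2 lower (15.9%, beside 30.9% of all genes and 31.9% of those above 20 CPM), and 19 did not overlap beside 43.8%. With library totals in place of TMM the split at day 3 was 4 higher and 8 lower. Library totals moved the median of all genes by -0.072 in this comparison. Relative to that median the nuclear genes lay at 0.086 with TMM and 0.085 with library totals.

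Sdhc, a membrane anchor of complex II, had the largest difference among the genes above 20 CPM. It had 102.3, 96.8 and 91.2 CPM in WT and 151.3, 136.1 and 138.2 CPM in KO at day 0, and 81.6, 95.9 and 80.5 CPM in WT and 135.7, 123.4 and 118.5 CPM in KO at day 3. All KO samples lay above all WT samples. The log2 fold change was 0.55 ± 0.085 at day 0 (adjusted p = 0.00205) and 0.55 ± 0.085 at day 3 (adjusted p = 0.00127). Sdha, Sdhb and Sdhd were not called at either day, with log2 fold changes of 0.024 and -0.054 for Sdha, -0.14 and -0.038 for Sdhb, and 0.0014 and 0.15 for Sdhd.

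Sdhc (chr1:171127165-171150603, GRCm38) lies on distal chromosome 1, where genes in general were higher in KO. The median log2 fold change of the 92 other genes above 10 CPM within 10 Mb was 0.40 at day 0 and 0.49 at day 3, and Sdhc exceeded its neighbours by 0.15 and 0.060. The median of the 263 genes above 10 CPM on the distal part of chromosome 1 was 0.40 at day 0 and 0.48 at day 3, and on the rest of that chromosome -0.12 and -0.056. Chromosome 11 had medians of -0.24 and -0.31 and chromosome 8 of -0.15 and -0.13, where all chromosomes together had 0.0063 and 0.043. The copy number of these chromosomes in the cells was not tested. Without the nuclear genes whose neighbours within 10 Mb had a median over 0.15 in size, 8 of 77 were called at day 0, all higher, and 12 of 73 at day 3, 10 higher and 2 lower.

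**Figure D4:**
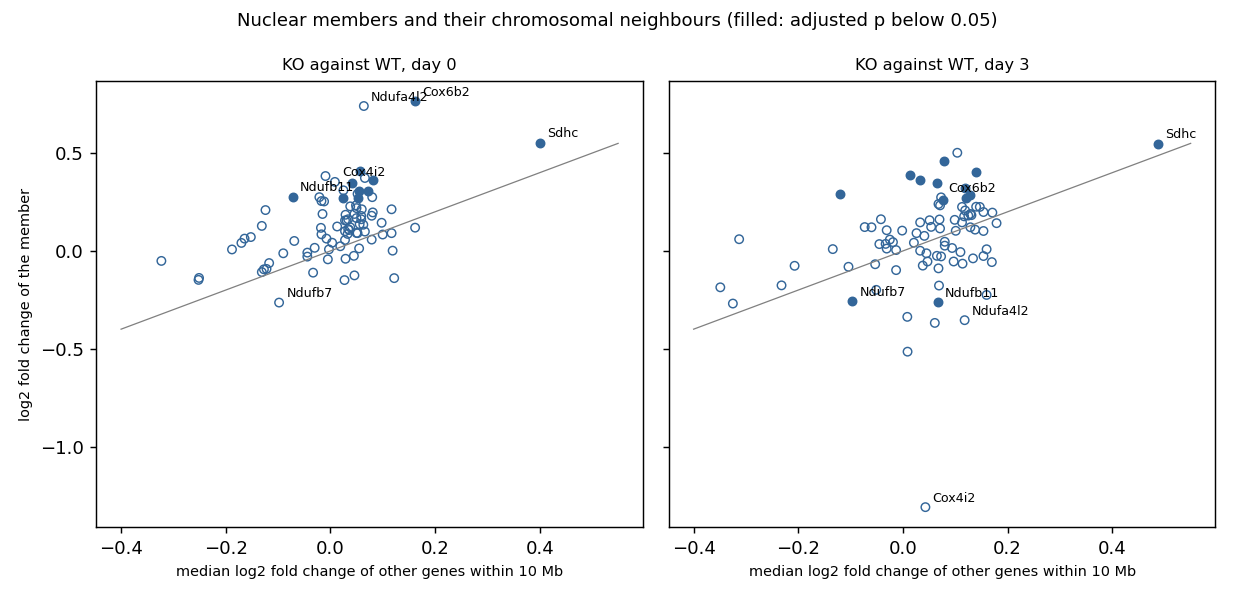
Log2 fold change of KO against WT for the nuclear members tested, apart from 1 gene not reported here (y axis) against the median log2 fold change of other genes above 10 CPM within 10 Mb (x axis), at day 0 and day 3, with the line of equality and filled points for an adjusted p below 0.05. Sdhc sits at the far right, at neighbour medians of 0.40 and 0.49, and 0.15 and 0.060 above the line.

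Of the other nuclear genes named above as called at day 0, the neighbours had medians within 0.15 of 0, apart from those of Cox6b2 at 0.16. The gene that is not reported here is not covered by this. Ndufa8, an accessory subunit of complex I, had 36.1, 38.8 and 40.8 CPM in WT and 45.6, 55.5 and 52.6 CPM in KO, without overlap (log2 fold change 0.41 ± 0.094, adjusted p = 0.0136). Cox8a, the ubiquitous isoform of the smallest complex IV subunit, had 81.2, 85.1 and 76.0 CPM in WT and 96.9, 112.8 and 102.1 CPM in KO (0.36 ± 0.079, adjusted p = 0.0104). At day 3 the log2 fold change of Ndufa8 was 0.015 and that of Cox8a 0.10, and neither passed. Cox6c was higher at both days, by 0.34 ± 0.083 at day 0 (adjusted p = 0.0163) and 0.41 ± 0.083 at day 3 (adjusted p = 0.0054), with 77.5 to 94.3 CPM in WT and 104.8 to 115.9 CPM in KO at day 0. Cox6a1 differed by 0.31 ± 0.066 at day 0 (adjusted p = 0.00981) and 0.18 ± 0.066 at day 3 (adjusted p = 0.0597). Cox6b2 differed by 0.77 ± 0.22 at day 0 (adjusted p = 0.0361), with 13.9, 7.40 and 6.49 CPM in WT and 19.6, 14.0 and 12.7 CPM in KO, which overlap. Atp5j2 differed by 0.27 at day 0 (adjusted p = 0.0453) and 0.32 at day 3 (adjusted p = 0.0169). The call at day 0 was lost without each of the 6 samples of that day (adjusted p between 0.0529 and 0.166), and that at day 3 without any of 4 of the 6 (adjusted p between 0.05 and 0.0794). Leaving out 1 sample also ended the day 0 calls of Cox6b2 and Ndufb10 for 5 of the 6 samples (adjusted p up to 0.148 and 0.164). Those of Cox6c and Ndufa8 ended for 3 (adjusted p up to 0.0855 and 0.0663) and that of Cox8a for 2 (adjusted p up to 0.0559). Cox6b2 and Cox6c lost theirs with no replicate block as well.

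The genes called higher in KO at day 3 and not at day 0 were Cox5a (0.36 ± 0.086, adjusted p = 0.0108), Ndufa5 (0.39, adjusted p = 0.0491), Uqcr11 (0.29, adjusted p = 0.0323), Cox7b (0.29, adjusted p = 0.0388), Ndufs6 (0.27, adjusted p = 0.0351) and Uqcrc1 (0.26, adjusted p = 0.0171). Cox5a had 96.7, 123.6 and 100.1 CPM in WT and 141.1, 142.9 and 127.3 CPM in KO, without overlap. The calls of Ndufa5, Uqcr11, Cox7b and Ndufs6 were each lost with library totals, with no filter, and without any of 4 or 5 of the 6 samples of day 3, with adjusted p up to 0.208 for Ndufa5, 0.132 for Uqcr11, 0.177 for Cox7b and 0.131 for Ndufs6. That of Uqcrc1 was lost without either of 2 samples (adjusted p up to 0.0718). The assembly factors Ndufaf3 (0.46, adjusted p = 0.0393) and Ndufaf7 (0.35, adjusted p = 0.0258) were called as well, the first lost without each of the 6 samples (adjusted p up to 0.138) and the second without any of 5 (adjusted p up to 0.0933). Ndufb7 was lower by 0.26 (adjusted p = 0.048). Of the isoforms, Cox4i1, Cox4i2, Cox6b1, Cox7a1, Cox7a2, Cox7a2l, Atp5g1, Atp5g2 and Atp5g3 were called at neither day. Of the largest of these, Cox4i2 had a log2 fold change of -1.31 ± 0.77 at day 3 at levels of 0.4 to 2.9 CPM.

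The comparisons at day 0 and day 3 share no sample. Of the nuclear genes 4, Atp5j2, Cox6c and Sdhc among them, were higher in KO at both days, 36.4% of the genes called at day 0 and 28.6% of those called at day 3, where over all genes 1129 were called in the same direction at both, 35.3% and 23.3%. For Atp5j2 this rests on calls that single samples ended at both days, and for Cox6c on a call that single samples ended at day 0. These counts moved with the fit. Without the replicate block 6 nuclear genes were called at day 0 and 8 at day 3, and with a separate block for each day 25 and 31, of which 24 and 23 were higher. At day 0, 10 were called without WT replicate 1, 7 without WT replicate 2, 5 without WT replicate 3, 7 without KO replicate 1, 3 without KO replicate 2 and 3 without KO replicate 3. At day 3, 7, 5 and 9 were called without WT replicates 1, 2 and 3 and 8, 6 and 8 without KO replicates 1, 2 and 3.

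Ndufb11 encodes an accessory subunit of the membrane arm of complex I and lies on the X chromosome. In the main fit it was the only member called for a difference of the KO effect between the days. It had 57.1, 53.4 and 47.1 CPM in WT and 69.9, 63.4 and 57.8 CPM in KO at day 0, and 65.7, 56.9 and 58.0 CPM in WT and 58.6, 47.7 and 44.9 CPM in KO at day 3. KO lay above WT at day 0 without overlap and mostly below it at day 3, where KO replicate 1 passed both lower WT samples. The log2 fold change of KO against WT was 0.28 ± 0.079 at day 0 (adjusted p = 0.0344) and -0.26 ± 0.079 at day 3 (adjusted p = 0.0309), a difference of -0.54 ± 0.11 (adjusted p = 0.0114). In the main fit it was the only call for this difference among the 88 nuclear genes tested. This was 1.14%, beside 15.5% of all genes and 16.6% of those above 20 CPM. A replicate block within each day called more members for this difference, with counts given in the last section. Without the replicate block the difference of Ndufb11 was -0.53 and did not pass (adjusted p = 0.0681), and it passed without each of the 12 samples in turn.

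Ndufa4l2, a paralogue of Ndufa4 known to be induced by low oxygen, varied with the replicate number. It had 30.3, 1.98 and 3.91 CPM in WT and 44.7, 8.76 and 6.58 CPM in KO at day 0, and 2.28, 24.5 and 5.76 CPM in WT and 0.300, 18.6 and 5.32 CPM in KO at day 3. Replicate 1 was the highest of both genotypes at day 0 and replicate 2 the highest of both at day 3. Ndufv3, chosen after its values were seen, did the same with 76.9, 49.2 and 49.99 CPM in WT and 83.6, 67.3 and 62.3 CPM in KO at day 0, and 46.4, 76.9 and 61.5 CPM in WT and 56.9, 85.0 and 71.2 CPM in KO at day 3. What a shared number stands for is not given in the labels.

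**Figure D5:**
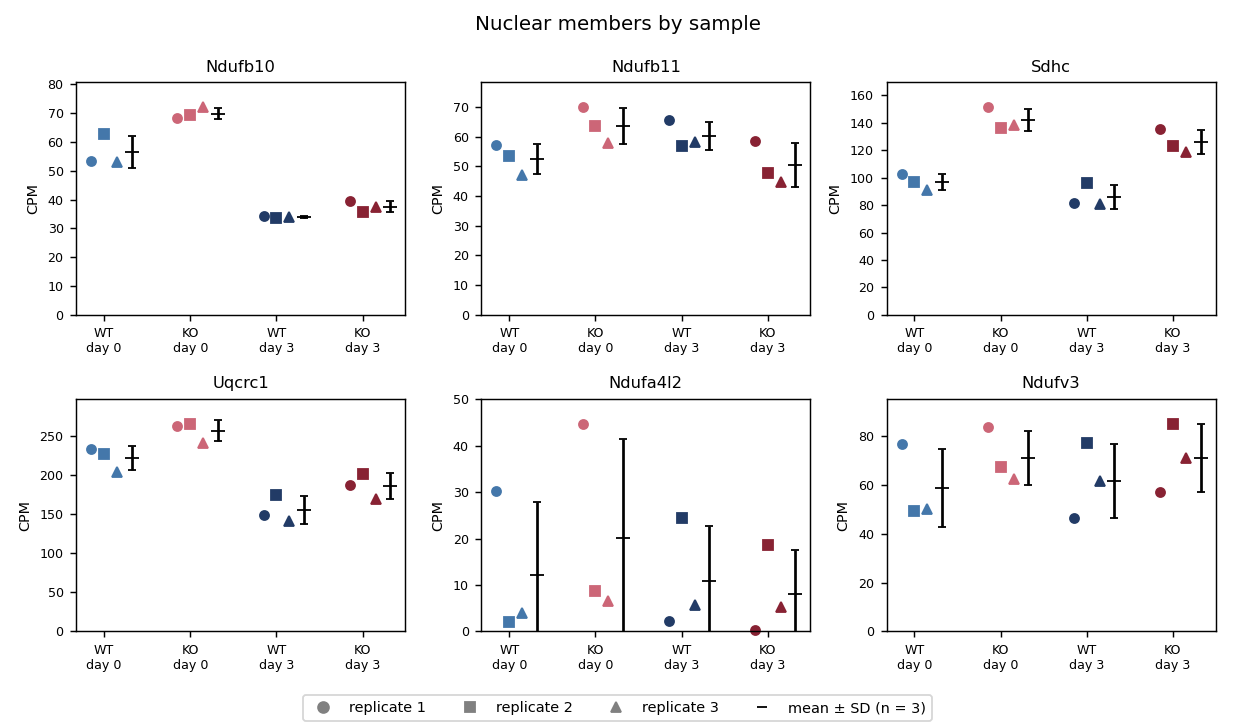
TMM-scaled CPM (y axis, linear, from 0) of Ndufb10, Ndufb11, Sdhc, Uqcrc1, Ndufa4l2 and Ndufv3 in each sample, by group (x axis), with a symbol for each replicate number and bars for mean ± SD (n = 3), cut at 0 for Ndufa4l2. Sdhc is separated by genotype, Ndufb10 and Uqcrc1 by day, and Ndufa4l2 by replicate number within a day, with replicate 1 at 30.3 and 44.7 CPM at day 0.

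Promoter windows of nuclear members were searched for the letters of factors known for respiratory genes. RefSeq (GRCm38.p6) windows of 250 bases before to 50 after the start were matched by symbol for 74 of the 93 nuclear genes (79 windows). The NRF1 letters GCGCATGC stood in 15.2% of member windows, on either strand, where 4.9% of the windows of all tested genes and 2.71% of all windows held them. For the YY1 letters AAGATGGC the shares were 12.7%, 3.98% and 2.75%, for the ERR family letters AAGGTCA 10.1%, 3.29% and 4.72%, and for the ETS family letters CCGGAAG, which include those of GABP, 22.8%, 15.8% and 8.86%. GGGCGG, the SP1 letters, stood in 43% of member windows and 61.4% of those of tested genes, CACGTG, the E-box, in 7.59% and 9.66%, and TATAAA in 10.1% and 7.22%. Both strands were searched, and the NRF1 letters matched both strands of the same stretch in each printed window that held them. Of the 12 nuclear genes that fell in WT 9 had a window, and 3 of them held the NRF1 letters: Uqcrc1, Cox6a1 and Ndufa11. Their windows are shown with that of Ndufb10, the gene of complex I with the largest fall, which holds none of the NRF1, ETS, YY1 and ERR letters. Capitals mark NRF1 letters on either strand and, in Cox6a1, the ETS letters read on the opposite strand. The windows are chr9:108936398-108936697 (plus strand) for Uqcrc1, chr5:115348909-115349208 (minus strand) for Cox6a1, chr17:56717512-56717811 (plus strand) for Ndufa11 and chr17:24724374-24724673 (minus strand) for Ndufb10, each 5′ to 3′ on the strand of the gene.
Uqcrc1: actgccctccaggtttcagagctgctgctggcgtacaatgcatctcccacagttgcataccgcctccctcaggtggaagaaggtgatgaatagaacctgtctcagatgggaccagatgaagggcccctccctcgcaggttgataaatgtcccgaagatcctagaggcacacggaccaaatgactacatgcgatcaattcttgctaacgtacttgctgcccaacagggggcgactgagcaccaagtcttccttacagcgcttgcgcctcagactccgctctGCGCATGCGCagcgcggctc
Cox6a1: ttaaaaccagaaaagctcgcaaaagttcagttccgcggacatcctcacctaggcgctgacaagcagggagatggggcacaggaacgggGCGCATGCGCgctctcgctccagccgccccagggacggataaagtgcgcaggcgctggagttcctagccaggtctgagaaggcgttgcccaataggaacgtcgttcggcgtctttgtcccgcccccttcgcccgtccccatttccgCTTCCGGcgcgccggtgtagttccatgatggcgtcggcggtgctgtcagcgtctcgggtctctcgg
Ndufa11: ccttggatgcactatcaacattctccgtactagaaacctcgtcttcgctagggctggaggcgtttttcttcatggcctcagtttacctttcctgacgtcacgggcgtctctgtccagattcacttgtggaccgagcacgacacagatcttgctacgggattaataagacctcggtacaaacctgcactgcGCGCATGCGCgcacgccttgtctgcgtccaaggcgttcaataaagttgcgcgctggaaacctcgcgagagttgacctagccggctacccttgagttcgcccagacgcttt
Ndufb10: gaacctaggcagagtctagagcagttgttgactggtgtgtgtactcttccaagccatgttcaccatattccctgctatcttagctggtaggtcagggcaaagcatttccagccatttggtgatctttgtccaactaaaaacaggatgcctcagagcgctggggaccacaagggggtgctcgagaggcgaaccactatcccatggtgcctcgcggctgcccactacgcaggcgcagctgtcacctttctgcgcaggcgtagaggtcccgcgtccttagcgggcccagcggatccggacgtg
The NRF1 letters begin 31 bases after the start in Uqcrc1, 162 bases before it in Cox6a1 and 60 bases before it in Ndufa11.

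Other genes of the pathway were counted from lists chosen by function. Over all genes tested, 30.7% were called higher and 25.5% lower over time in WT, 29.4% and 27.2% in KO, 9.56% and 10.9% in KO against WT at day 0, and 14.3% and 16.7% at day 3. Of 77 genes tested for mitochondrial ribosomal proteins, which translate the mitochondrial subunits, 3 rose and 30 fell over time in WT, and 8 rose and 19 fell in KO, with medians of -0.20 and -0.11. Mrps18b fell by 0.75 (adjusted p = 6.45e-05) and Mrpl15 by 0.73 (adjusted p = 0.000273). KO against WT, 1 was higher and 3 lower at day 0 and 5 higher and 3 lower at day 3. Of 30 genes for mitochondrial DNA and RNA handling 5 rose and 7 fell in WT and 6 rose and 6 fell in KO. KO against WT, Fastk, Supv3l1, Tfb2m and Mtpap were called higher at day 0, and Tefm and Elac2 lower. At day 3 Supv3l1, Fastkd3, Tfb2m and Lrpprc were called higher, and Pnpt1 lower. Tefm had the largest difference of this list, -1.297 ± 0.205 at day 0 (adjusted p = 0.00234). At day 3 it had -0.443 and did not pass (adjusted p = 0.115). Tefm, Elac2 and Pnpt1 lie on chromosome 11. Leaving out 1 sample ended the calls of Elac2, Pnpt1 and Fastkd3 in some fits. Tfb2m, a mitochondrial transcription factor, had 16.8, 15.4 and 15.8 CPM in WT at day 0, 9.79, 8.61 and 7.09 CPM in WT at day 3 and 12.6, 12.1 and 11.6 CPM in KO at day 3. It fell in WT by 0.92 ± 0.13 (adjusted p = 0.000216) and was higher in KO at day 3 by 0.52 ± 0.13 (adjusted p = 0.0122), and it too lies on distal chromosome 1. Lrpprc, which stabilises mitochondrial mRNAs, fell in WT by 0.41 (adjusted p = 0.000428), changed by -0.031 in KO and was higher in KO at day 3 by 0.21 (adjusted p = 0.0295).

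Of 15 nuclear regulators of respiratory genes 2 rose and 8 fell in WT, 3 rose and 7 fell in KO, and 4 were higher in KO at day 3, led by Esrrb (0.68 ± 0.18, adjusted p = 0.0173), Hcfc1 (0.39, adjusted p = 0.00226) and Gabpa (0.30, adjusted p = 0.0106). Esrrb, also an ESC factor, fell by 3.82 in WT (adjusted p = 9.13e-07) and 3.71 in KO (adjusted p = 4.69e-07). The genes counted as rising include Ppargc1a, a coactivator of mitochondrial biogenesis, which passed the filter through 1 KO sample of day 3 alone, and no fold is given for it. It had at most 0.273 CPM in any sample of day 0, with 3 of the 6 at 0, and 0.428 to 1.35 CPM at day 3. Esrrg, counted as rising in KO, likewise passed the filter through samples of day 3 alone, and no fold is given for it. It had at most 0.655 CPM at day 0, and its call was lost without any of 4 samples (adjusted p between 0.051 and 0.113). Of 13 citric acid cycle genes 1 rose and 3 fell in WT and 1 rose and 7 fell in KO. Cs, citrate synthase, had 398.1, 379.7 and 417.2 CPM in WT at day 0, 241.4, 244.4 and 260.4 CPM in WT at day 3 and 310.4, 325.1 and 316.4 CPM in KO at day 3, without overlap. It fell by 0.68 ± 0.065 in WT (adjusted p = 2.64e-05) and 0.27 ± 0.065 in KO (adjusted p = 0.00502), and was higher in KO at day 3 by 0.35 ± 0.065 (adjusted p = 0.0031). Of 40 assembly factors outside the symbol rule 5 rose and 8 fell in WT and 3 rose and 8 fell in KO, and 1 was higher and 8 lower in KO at day 3. Among the 3 subunit and electron carrier genes that the prefixes miss, Cyc1, cytochrome c1 of complex III, fell by 0.39 in WT (adjusted p = 0.00371) and 0.25 in KO (adjusted p = 0.0348). Its call in KO was lost without any of 4 samples (adjusted p between 0.0763 and 0.15) and under 4 other settings.

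The genes of these lists called in KO against WT were placed by chromosome, a split chosen after the values were seen. Of 178 genes tested over all lists, the 25 on chromosome 11 had a median log2 fold change of -0.23 at day 0 and -0.31 at day 3, with 7 and 10 called lower and none higher. The 5 on distal chromosome 1 had medians of 0.41 and 0.46, with 3 called higher at each day. The 148 others had medians of 0.044 and 0.086, with 8 higher and 2 lower at day 0 and 14 higher and 3 lower at day 3. These 3, Bcs1l, Coa5 and Tmem70, lie on chromosome 1 below its distal part, where genes above 10 CPM had medians of -0.12 and -0.056. The others are thus not free of regions where genes in general were shifted in KO. Among those on chromosome 11 were Coa3, a complex IV assembly factor with log2 fold changes of -0.48 and -0.58, and Ttc19, a complex III factor with -0.69 and -0.41, and among those on distal chromosome 1 was Mrps14, a mitochondrial ribosomal protein with 0.70 and 0.54.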

How the data were processed

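Poly(A)-selected RNA of 12 samples was sequenced as single reads of 100 bases. The deposited files hold raw counts per Ensembl gene, made by the authors with cutadapt 1.3, STAR 2.4.2a on GRCm38 and HTSeq 0.6.1. The strand setting of the counting is not given in the sources used here. Summary lines, multimapped reads among them (36.5 to 44.1%), were left out, leaving 17455927 to 23910943 counts per sample. Symbols came from GENCODE M21, which matched 46005 of the 46517 gene IDs.

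All samples entered 1 edgeR 4.0.16 quasi-likelihood fit in R 4.3.3 with TMM scaling, 4 groups and the replicate number as a block, over the 15673 genes that exceeded 1 CPM in any sample, and p-values were adjusted by Benjamini-Hochberg over all of them (threshold 0.05). Tables and plots used Python 3.11.15, pandas 2.3.3, numpy 2.4.6 and matplotlib 3.10.9. The fits were tested on simulated data. Deviations from the group means correlated between same-numbered samples of the 2 genotypes within a day (r 0.341 to 0.732, 6 pairs) and not across days (mean r -0.055), so the numbers, which come from the sample titles, pair samples within a day only. The block of the main fit is shared by both days and does not follow this pairing. A block within each day does, and the counts that moved under it are given beside those of the main fit. Alternatives were no block, a block within each day, limma 3.58.1 voom, DESeq2 1.42.0, RLE factors, library totals, scaling without mitochondrial genes, a minimum of 10 counts in every sample, no filter, only the groups compared, and each replicate left out. Leaving out members with shifted neighbours was added after seeing the data.

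Named were all mitochondrial members, Sdha to Sdhd, the listed isoforms, and per complex up to 3 called members with the largest change; others are named from counts of called genes and were chosen after their values were seen. The members and lists were chosen with earlier results of these data known. A result for 1 nuclear gene is not reported here, and counts over all members include it.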

Additional observations from a re-analysis of the deposited data

Results flagged for a closer look

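The interaction term of the main edgeR quasi-likelihood fit called a KO effect differing between day 3 and day 0 for 1 subunit gene. It also called 8 genes of the lists around the subunits and 15.5% of all genes tested. For Ndufb11 of complex I the difference was -0.54 on the log2 scale (adjusted p = 0.0114), with 0.28 at day 0 and -0.26 at day 3, and the call was lost with no replicate block (adjusted p = 0.0681). Cs, citrate synthase, differed by 0.41 (adjusted p = 0.0152), with -0.056 at day 0 and 0.35 at day 3. Its call was lost without KO day 0 replicate 2 (adjusted p = 0.0507) or KO day 3 replicate 2 (adjusted p = 0.0527). Other citric acid cycle genes differed the opposite way, Idh3b by -0.45 (adjusted p = 0.0171), Idh3g by -0.39 (adjusted p = 0.0323) and Sucla2 by -0.34 (adjusted p = 0.0412). Leaving out 1 sample ended the call of Sucla2 for each of the 12 samples (adjusted p between 0.0581 and 0.14), that of Idh3g for 11 of the 12 (adjusted p up to 0.1) and that of Idh3b for 5 (adjusted p up to 0.0598).

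Lrpprc differed by 0.38 (adjusted p = 0.0189), with -0.17 at day 0 and 0.21 at day 3, a call lost without KO day 0 replicate 2 (adjusted p = 0.0637) or KO day 3 replicate 2 (adjusted p = 0.0562). The mitochondrial rRNA mt-Rnr1 differed by 0.70 (adjusted p = 0.0389), with -0.13 at day 0 and 0.57 at day 3, a call lost without any of 8 samples (adjusted p up to 0.104). Mrpl16 differed by 0.44 (adjusted p = 0.0445), a call lost without any of 11 of the 12 samples (adjusted p up to 0.115). The transcription factor gene Mycn differed by 2.16 (adjusted p = 0.00667), from -1.70 at day 0 to 0.47 at day 3. No explanation for these differences was tested.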

How the results depend on the processing

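With no replicate block the nuclear genes called were 6 at day 0, 8 at day 3 and 0 for the difference between days, and with a replicate block within each day 25, 31 and 5, with 4 mitochondrial genes called at day 0 and 2 for the difference. The other counts kept within 1.5 times of the main value under either block. DESeq2 called 17 nuclear and 2 mitochondrial genes at day 0, and 5 mitochondrial genes over time in KO. No filter on low counts gave 7 nuclear and 2 mitochondrial genes at day 0, 6 nuclear at day 3, 13 nuclear over time in WT, 5 mitochondrial over time in KO and 1 mitochondrial for the difference. A fit of only the groups compared gave 22 nuclear and 4 mitochondrial genes at day 0, 26 nuclear at day 3, 9 nuclear over time in WT and 4 mitochondrial over time in KO. Library totals gave 2 nuclear genes for the difference. Leaving out 1 sample at a time gave 3 to 10 nuclear and 0 to 2 mitochondrial genes at day 0, 5 to 9 and 3 to 5 at day 3, 11 to 17 and 4 to 6 over time in WT, 20 to 25 and 2 to 5 over time in KO, and 0 to 1 mitochondrial genes for the difference. Of these, 1 mitochondrial gene was called at day 0 without WT day 0 replicate 2 and 2 without KO day 0 replicate 1, 5 over time in KO without KO day 3 replicate 1, and 1 for the difference without WT day 0 replicate 1. Without genes of shared words the mitochondrial share was 1.3% in WT and 1.56% in KO at day 0, and 0.834% and 1.25% at day 3. The causes were not tested. Of 3825 single-gene values recomputed 3465 kept their direction and side of the threshold, 291 lost the call, 69 gained one and 0 reversed. The depth limits what can be said of genes near 1 CPM, such as Cox4i2 and Atp5l. The counting limits what can be said of the 6 mitochondrial genes at 0, and of Atp5l, which shares words with other genes.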
